A study of Mus musculus with 18 samples.

Results

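The mouse mitochondrial genome carries 37 genes, namely 13 protein-coding genes, 2 ribosomal RNA (rRNA) genes and 22 transfer RNA (tRNA) genes. All genes whose symbol starts with mt- were taken from the 55401 genes of the deposited count table, and no measured value entered the choice. Gene activity was read by sequencing of polyA RNA from 2 brain regions, the bed nucleus of stria terminalis (BNST) and the prelimbic part of the medial prefrontal cortex (mPFC) of adult male wild-type C57BL/6 mice. In each region, 3 libraries came from mice given formalin in the paw, with tissue taken after 24 h, 3 from mice given complete Freund's adjuvant (CFA), with tissue taken after 72 h, and 3 from control mice without either injection, which makes 18 libraries in 6 groups. Formalin served as the model of acute pain and CFA as the model of persistent pain, and the agent and the hour at which tissue was taken cannot be told apart. Some figure legends of the study call the control mice sham-treated, and the labels list no treatment for them. The study describes dissecting both regions from each of 3 brains per group. By that description the replicates of a group are separate mice, and the BNST and mPFC libraries of a group come from the same mice.

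The mitochondrial proteins are core subunits of the respiratory chain and of ATP synthase. The genome is transcribed from both strands as long precursors, which are then cut, mostly at the tRNAs that lie between the other genes, into separate messenger, ribosomal and transfer RNAs. The heavy-strand transcripts, whose genes are annotated on the plus strand, give most of the messenger RNAs and both rRNAs. The other strand gives only mt-Nd6 and a set of tRNAs. Mature mitochondrial messenger RNAs carry short polyA tails, whereas mature tRNAs and rRNAs are not typical targets of a polyA selection, so the counts of the RNA genes describe what passed the selection and not the pool of mature RNA.

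The ends of several messenger RNAs show why the tail matters in this genome, since it completes the stop codon where the gene itself stops short. The sequences are those of the GENCODE M21 transcripts on build GRCm38, the annotation whose gene IDs the table uses. Of the 13 protein-coding genes, mt-Co3, mt-Nd4 and mt-Cytb end in a single T, which is the incomplete last codon. mt-Nd1 and mt-Co1 are annotated with a complete stop codon. Positions 3706 to 3707 of the mt-Nd1 stop codon are also annotated as the start of mt-Ti, a tRNA gene on the same strand. Where the mt-Nd1 messenger ends was not examined. The last 30 bases of these protein-coding genes are shown with the annotated stop codon, complete or not, in capitals.
mt-Nd1, chrM:3678-3707, plus strand: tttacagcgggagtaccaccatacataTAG
mt-Co1, chrM:6843-6872, plus strand: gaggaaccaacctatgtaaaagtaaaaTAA
mt-Co3, chrM:9361-9390, plus strand: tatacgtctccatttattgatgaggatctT
mt-Nd4, chrM:11515-11544, plus strand: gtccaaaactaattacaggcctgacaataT
mt-Cytb, chrM:15259-15288, plus strand: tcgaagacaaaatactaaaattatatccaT
Genes of opposite strands also share bases here. The end of mt-Nd5 at 13552 to 13565 is read in the other direction by the end of mt-Nd6, as the last 30 bases of each gene show.
mt-Nd5, chrM:13536-13565, plus strand: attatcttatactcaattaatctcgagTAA
mt-Nd6, chrM:13552-13581, minus strand: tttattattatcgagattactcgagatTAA
The strand setting of the counting is not given in the sources used here, so reads of either strand in such a stretch cannot be told apart.

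The libraries held 14781315 to 23408503 counts each, and 18994 genes had enough counts to be tested. Levels are given in CPM, which relate a gene's counts to the TMM-adjusted total of its library, and in CPM per kb where genes of different length are compared. A single edgeR quasi-likelihood fit over the 18 libraries gave all comparisons, and a gene is called at a Benjamini-Hochberg adjusted p under 0.05 over all tested genes with an absolute log2 fold change above 0.5. All 13 protein-coding genes, both rRNA genes and 15 of the 22 tRNA genes were tested, and each of these 30 genes passed the count filter of 0.577 CPM in 9 or more libraries. The comparisons with control share the 3 control libraries of their region, and the comparisons of formalin with CFA use the same libraries again, so they are not independent of each other.

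The libraries of the regions differed in lists of neuron markers. A list of 5 cortical pyramidal genes summed to 1875 to 2364 CPM in the mPFC libraries, and to 21.98 to 491 CPM in the BNST libraries. A list of 6 GABAergic genes summed to 1021 to 1812 CPM in the BNST libraries, and to 531 to 631 CPM in the mPFC libraries. These 6 genes mark GABAergic neurons in general and not the BNST alone. Markers of tissue beside the BNST are given further below. Some libraries stood apart. BNST formalin replicate 2 and BNST CFA replicate 2 held the most choroid plexus RNA (9 markers, 8816 and 17704 CPM in sum), and in CFA replicates 2 and 3 of both regions the counts of mt-Nd3 were low and those of a nuclear copy of it were high. Values without these libraries stand beside the calls they changed. Where leaving out libraries left 1 library in an arm, the spread came from the other groups, and the lone library was assumed to vary like them.

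mt-Co1, which encodes the catalytic subunit of cytochrome c oxidase (complex IV), had the highest level of the 37 genes, with a mean of 14775 CPM per kb over the 18 libraries (11805 to 20197). It took 38.7% of all mitochondrial counts. mt-Cytb, the cytochrome b of complex III, followed with 6976 CPM per kb, and the complex I genes mt-Nd1, mt-Nd2 and mt-Nd5 with 5849, 4228 and 3533 CPM per kb. The rRNA genes mt-Rnr2 (16S) and mt-Rnr1 (12S) had 2636 and 2496 CPM per kb, close to mt-Nd6 at 2499 and mt-Nd4 at 2493 CPM per kb. A second set of protein-coding genes lay far below. mt-Co2, mt-Atp6, mt-Nd4l, mt-Co3 and mt-Nd3 had 163, 124, 111, 110 and 75.6 CPM per kb, and mt-Atp8, a small subunit gene of ATP synthase that shares positions 7927 to 7969 with mt-Atp6, had 5.58 CPM per kb.

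**Figure D1:**
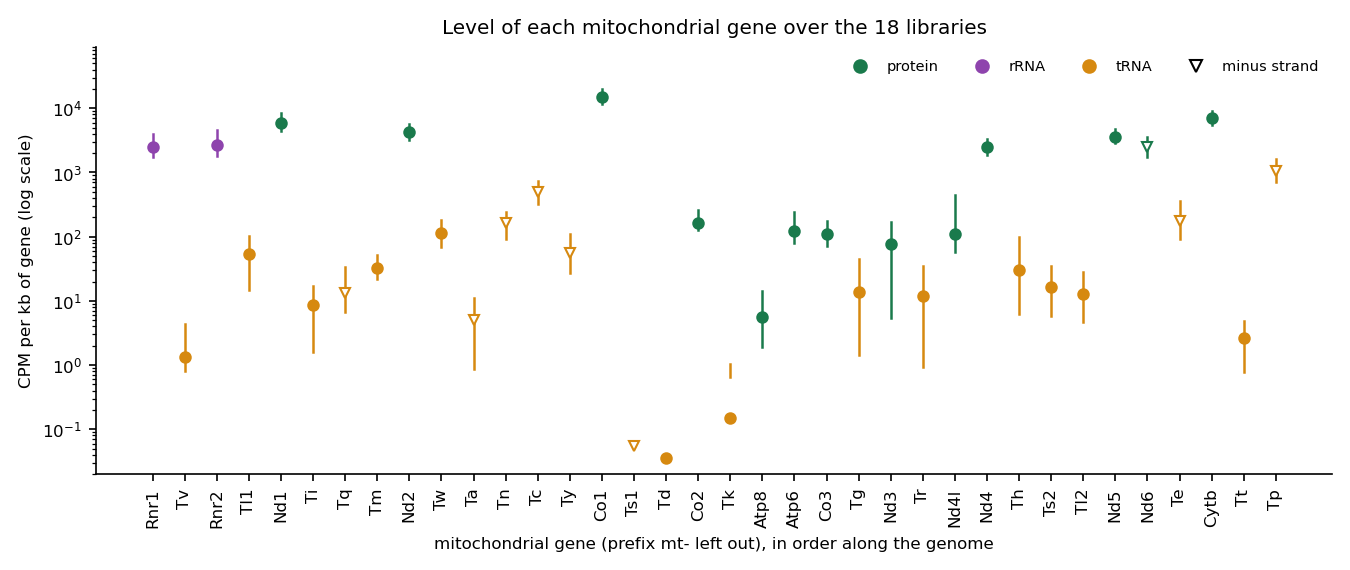
Mean level of each mitochondrial gene over the 18 libraries in CPM per kb of gene (log axis), in the order of the genes along the mitochondrial genome. Circles are plus-strand genes and open triangles minus-strand genes, coloured by class, and lines run from the lowest level above 0 to the highest level of a library. mt-Tf, with 0 counts, is not drawn. mt-Co1 is highest, and mt-Co2, mt-Atp6, mt-Co3, mt-Nd3 and mt-Nd4l form a low stretch between 75.6 and 163 CPM per kb.

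The low set lined up with copies of mitochondrial sequence in the nuclear genome. Between 97.0% and 99.8% of all 150-base windows of mt-Co2, mt-Atp6, mt-Co3, mt-Nd4l and mt-Nd3 were also found in an annotated nuclear transcript, and no window of mt-Nd1, mt-Nd2, mt-Nd5, mt-Nd6 or mt-Cytb was. The 5 genes with a near-complete copy had mean levels of 75.6 to 163 CPM per kb, and the 5 genes with no such window had 2499 to 6976 CPM per kb. mt-Nd4, with 59.2% of its windows in a copy, and mt-Co1, with 23.6%, had the higher levels given above. mt-Atp8 was low and had no window in an annotated transcript. The copies Gm28661 of mt-Co2 and Gm10925 of mt-Atp6, the protein-coding genes beside it, lie at 24614885 to 24615565 and 24613974 to 24614651 on chromosome 1. The search took exact matches in annotated transcripts only, so whether the stretch between these copies holds mt-Atp8 sequence was not examined. How the counting treated reads that match several places is not given in the sources used here, so the levels of the genes with a copy are uncertain, and the part of the copies in these levels was not tested.

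The 4 most abundant tRNA genes lay on the minus strand. mt-Tp, mt-Tc, mt-Te and mt-Tn, the tRNA genes for proline, cysteine, glutamate and asparagine, had means of 1071, 494, 176 and 163 CPM per kb. The highest plus-strand tRNA gene was mt-Tw, for tryptophan, at 116 CPM per kb, and the remaining 10 tested tRNA genes had 8.75 to 55.5 CPM per kb, minus-strand genes among them. Of the 8 minus-strand tRNA genes 6 were tested, and of the 14 plus-strand ones 9. The untested genes had 1 to 12 counts (mt-Ta), 0 to 7 (mt-Tv), 0 to 6 (mt-Tt) or 0 to 1 (mt-Tk, mt-Ts1, mt-Td) in a library, and mt-Tf had 0 counts in all 18. The 3 tRNA genes with the highest levels are shown whole.
mt-Tp, chrM:15356-15422, minus strand: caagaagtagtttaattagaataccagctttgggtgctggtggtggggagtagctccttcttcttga
mt-Tc, chrM:5192-5257, minus strand: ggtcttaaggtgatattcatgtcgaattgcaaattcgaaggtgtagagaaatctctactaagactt
mt-Te, chrM:14071-14139, minus strand: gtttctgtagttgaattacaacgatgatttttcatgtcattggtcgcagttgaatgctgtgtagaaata
mt-Te ends on the base before mt-Nd6 starts, on the same strand.

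The mitochondrial genes together took 4.37% to 7.34% of the counts of a library. In the BNST the share was 6.03%, 6.15% and 5.60% in the formalin libraries, 6.71%, 6.99% and 5.82% in the CFA libraries, and 5.41%, 5.71% and 5.38% in the control libraries. The CFA libraries lay above all control libraries, and the lowest formalin library lay below the highest control library. In the mPFC the share was 6.54%, 6.80% and 7.34% in the formalin libraries, 5.36%, 5.08% and 5.61% in the CFA libraries, and 4.37%, 5.03% and 5.94% in the control libraries. Here the formalin libraries lay above all others, and the CFA libraries lay within the range of the control libraries. These shares are a description without a test, and in such tissue samples fewer cells of a type and less RNA per cell cannot be told apart.

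**Figure D2:**
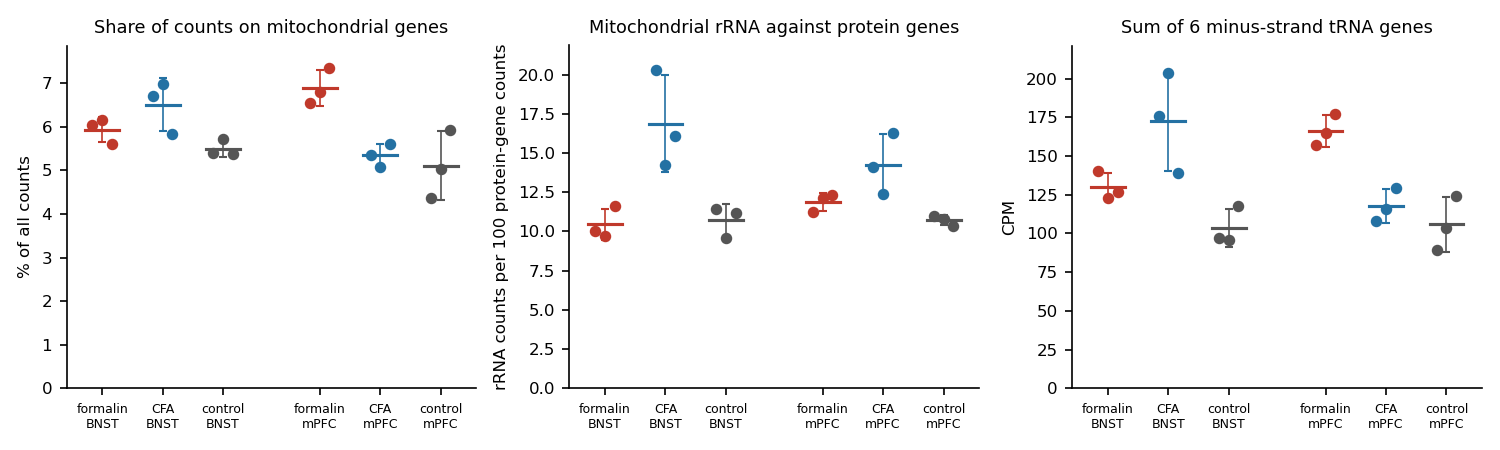
Share of all counts on the 37 mitochondrial genes (left, %), mitochondrial rRNA counts per 100 counts of the mitochondrial protein-coding genes (middle) and summed level of the 6 tested minus-strand tRNA genes (right, CPM), 1 point per library. Lines are means and error bars are SD (n = 3 per group). The mPFC formalin libraries have the highest mitochondrial share of their region at 6.54% to 7.34%, and the BNST CFA libraries the highest rRNA ratio at 14.2 to 20.3.

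After CFA, the rRNA genes of the mitochondrial ribosome were higher in the BNST while none of the 13 protein-coding genes was called. mt-Rnr2, the 16S rRNA of the large ribosomal subunit, had 7162, 5632 and 5170 CPM in the BNST CFA libraries, against 3547, 3068.5 and 3172 CPM in the control libraries. The lowest CFA library lay well above the highest control library. mt-Rnr1, the 12S rRNA of the small subunit, had 3825, 3005 and 2596 CPM in the CFA libraries, against 1789, 1729.5 and 1772 CPM in the control libraries, again without overlap. The log2 fold change of CFA over control was 0.88 for mt-Rnr2 (SE = 0.13; edgeR quasi-likelihood test, Benjamini-Hochberg adjusted p = 0.000233) and 0.83 for mt-Rnr1 (SE = 0.14; adjusted p = 0.000568). Both calls held without any single library of the 18. In this comparison 10 of the 30 tested mitochondrial genes were called, all higher, while 11.9% of all tested genes were called and 4.89% were called higher. The 10 are the 2 rRNA genes and 8 tRNA genes. For 10 of the 30 genes, not the same set as the called one, every CFA library lay above every control library. The same held for 15.4% of all tested genes.

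Formalin left the BNST rRNA genes near the control level. mt-Rnr2 had 3330.5, 3196 and 3487 CPM in the BNST formalin libraries and mt-Rnr1 had 1835, 1803 and 1890 CPM, which is within the range of the control libraries for mt-Rnr2 and just above it for mt-Rnr1. The log2 fold change of formalin over control was 0.03 for mt-Rnr2 (SE = 0.13, adjusted p = 0.921) and 0.06 for mt-Rnr1 (SE = 0.14, adjusted p = 0.845). Against the CFA libraries, formalin libraries were lower in both genes, with log2 fold changes of -0.84 (SE = 0.13, adjusted p = 0.000909) and -0.77 (SE = 0.14, adjusted p = 0.00226). These are 2 of the 3 mitochondrial genes called in this comparison, in which 6.87% of all tested genes were called and 2.96% were called lower.

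Within the mitochondrial counts, the ratio of rRNA to protein-gene counts does not depend on the scaling of the libraries. It was 10.1, 9.69 and 11.6 rRNA counts per 100 protein-gene counts in the BNST formalin libraries, 20.3, 14.2 and 16.1 in the CFA libraries, and 11.4, 9.59 and 11.2 in the control libraries. All 3 CFA libraries lay above the other 6 BNST libraries. In the mPFC the ratio was 11.2, 12.1 and 12.3 in the formalin libraries, 14.1, 12.4 and 16.3 in the CFA libraries, and 11.0, 10.8 and 10.3 in the control libraries. The CFA libraries were the highest in this region too, with the lowest of them just above the highest formalin library.

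The BNST libraries also differed in markers of neighbouring tissue. A list of 8 markers of striatal medium spiny neurons summed to 1362 to 1930 CPM in the formalin libraries and to 302 to 720 CPM in the CFA libraries. The control libraries held 1606 to 3751 CPM, and 8 of 8 were called lower in CFA than in control. In that comparison 11.9% of all tested genes were called, and 4.89% were called higher. Of 7 tested habenula and thalamus markers 5 were called higher in CFA than in control, with sums of 211 to 217 CPM after formalin, 355 to 627 CPM after CFA and 214 to 294 CPM in control. The 9 choroid plexus markers summed to 2916 to 8816 CPM after formalin, 178 to 17704 CPM after CFA and 34.7 to 741 CPM in control, and 1 of the 9, Folr1, was called higher after CFA. None of these markers was at 0 in all libraries of a BNST group, and their part in the mitochondrial results of the BNST was not tested. Without the 2 libraries richest in choroid plexus RNA, the log2 fold change of CFA over control was 0.93 for mt-Rnr2 (adjusted p = 0.000326) and 0.88 for mt-Rnr1 (adjusted p = 0.00153). In the headers of the study's supplementary tables, BNST control replicates 1 and 2 and BNST formalin replicate 1 carry other lane tags than the rest. Within lane L2, with 1 BNST control library left and the spread taken from the other groups, the values were 0.91 for mt-Rnr2 (adjusted p = 0.00552) and 0.82 for mt-Rnr1 (adjusted p = 0.0184).

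In the mPFC, the rRNA genes were called higher after formalin. mt-Rnr2 had 4366, 5011 and 5348 CPM in the mPFC formalin libraries, against 2828, 3267 and 3456 CPM in the control libraries. mt-Rnr1 had 2580, 2908.5 and 3374 CPM in the formalin libraries, against 1687, 1844 and 2163 CPM in the control libraries. The groups did not overlap for either gene. The log2 fold change of formalin over control was 0.62 for mt-Rnr2 (SE = 0.13, adjusted p = 0.0412) and 0.64 for mt-Rnr1 (SE = 0.14, adjusted p = 0.0481). After CFA, mt-Rnr2 had 4383, 3649 and 4982 CPM and mt-Rnr1 had 2679.5, 2279 and 3145 CPM, in all 3 libraries above the highest control library. Of the 30 mitochondrial genes 5 lay wholly above control after CFA, as did 13.4% of all tested genes. The log2 fold changes of CFA over control, 0.45 for mt-Rnr2 (SE = 0.13, adjusted p = 0.131) and 0.51 for mt-Rnr1 (SE = 0.14, adjusted p = 0.104), did not pass. In that comparison 0 of the 30 mitochondrial genes were called by edgeR, 3 had an unadjusted p under 0.05 (as did 13.8% of all tested genes), and DESeq2 called 1, while edgeR called 0.632% of all tested genes. The call after formalin was lost without any 1 of 10 of the 18 libraries for mt-Rnr2 (adjusted p up to 0.213) and without any 1 of 14 for mt-Rnr1 (adjusted p up to 0.265), and mt-Rnr1 also missed it within lane L2 (adjusted p = 0.0613).

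All 30 tested mitochondrial genes had a positive log2 fold change in the mPFC after formalin, and 3 of them were called, the rRNA genes and mt-Nd1. Of all tested genes, 0.269% were called in this comparison and 0.0632% were called higher, and 3 of the 12 genes called higher were mitochondrial. The 13 protein-coding genes had log2 fold changes of 0.34 to 0.94 with a median of 0.50, while the median over all tested genes was -0.0036. For 22 of the 30 genes every formalin library lay above every control library, as it did for 13.01% of all tested genes, and 20 of the 30 had an unadjusted p under 0.05, as did 14.1% of all tested genes. Scaling the libraries by the nuclear genes alone turned none of these directions.

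**Figure D3:**
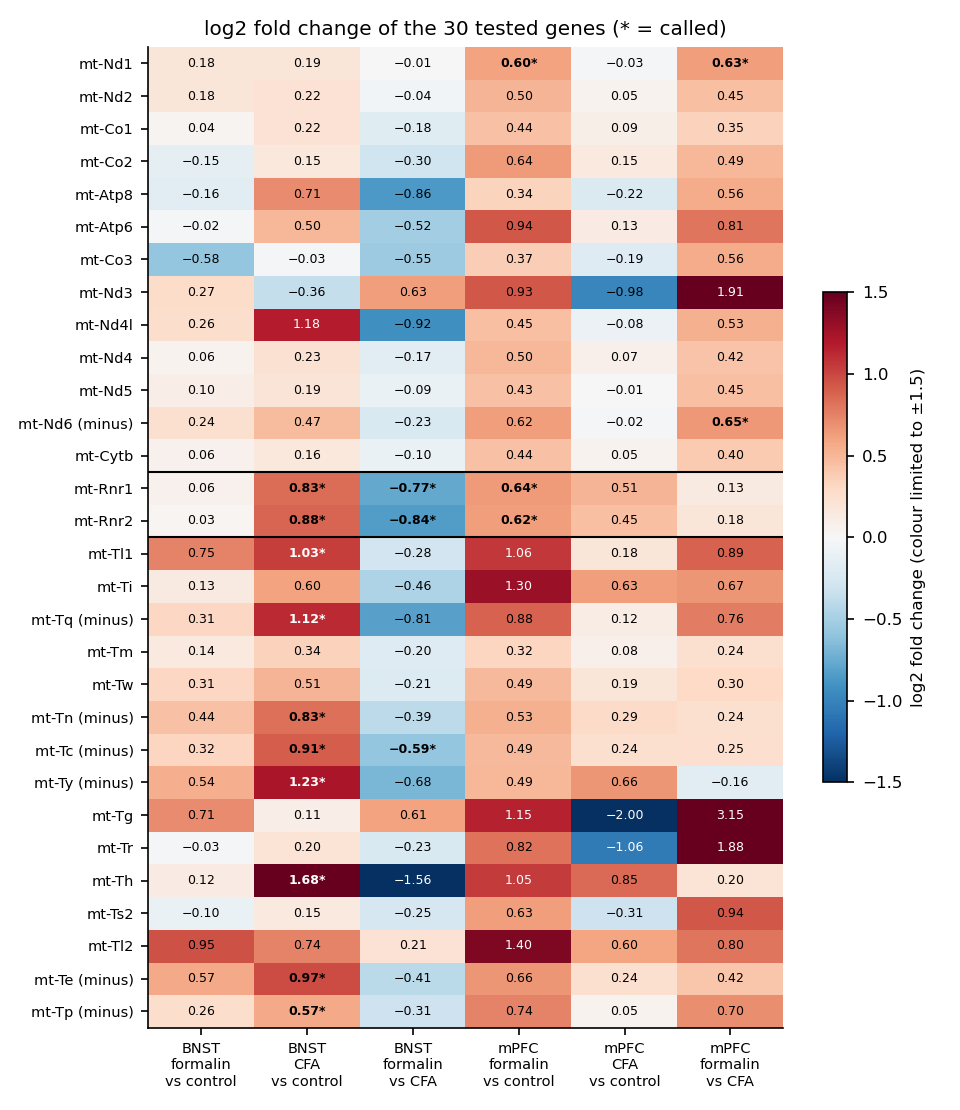
Log2 fold change of the 30 tested mitochondrial genes (rows, from the top the 13 protein-coding, 2 rRNA and 15 tRNA genes, each set in genome order) in the 6 comparisons within a region (columns), with colour limited to ±1.5. Stars mark called genes and "minus" marks genes on the minus strand. The BNST CFA column is called in both rRNA and 8 tRNA genes and in no protein-coding gene, whereas the mPFC formalin column is positive throughout.

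Of the complex I genes, mt-Nd1 and mt-Nd6 carried calls in the mPFC. mt-Nd1, a subunit at the quinone-binding end of complex I, had 7134.5, 7254 and 7936.5 CPM in the mPFC formalin libraries, 4927, 4555 and 4960 CPM in the CFA libraries, and 4169, 4859 and 5668 CPM in control libraries. The formalin libraries lay above all 6 others, and the control libraries spread around the CFA libraries. The log2 fold change was 0.60 for formalin over control (SE = 0.12, adjusted p = 0.0318) and 0.63 for formalin over CFA (SE = 0.12, adjusted p = 0.0118). The call against control was lost without any 1 of the 6 libraries compared and without CFA replicate 1 or 3, with adjusted p values of up to 0.178, and that against CFA without any 1 of 3 (formalin replicate 3, CFA replicates 1 and 2), with values of up to 0.0779.

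mt-Nd6, the only protein-coding gene of the minus strand, had 1624, 1731 and 1821 CPM in the mPFC formalin libraries, 1079, 1051 and 1179 CPM in the CFA libraries, and 919.56, 1087.5 and 1352.5 CPM in control libraries. Again the formalin libraries stood above the rest. The log2 fold change of formalin over CFA was 0.65 (SE = 0.15, adjusted p = 0.0304), and that of formalin over control, 0.62 (SE = 0.15, adjusted p = 0.0565), did not pass. Without the 2 BNST libraries richest in choroid plexus RNA, which share the fit, formalin over control had an adjusted p of 0.0224. The call between formalin and CFA was lost without any 1 of the 6 libraries compared, with adjusted p values of up to 0.135. mt-Nd1 and mt-Nd6 were the 2 mitochondrial genes called between formalin and CFA in the mPFC, where 0.932% of all tested genes were called and 0.374% were called higher. All 13 protein-coding genes had a positive log2 fold change there (0.35 to 1.91, median 0.53), and for 11 of the 13 the formalin libraries lay above the CFA libraries, as for 13.7% of all tested genes. With only CFA replicate 1 of each region kept, so 1 CFA library in this comparison, 0 of the mitochondrial genes passed in this comparison, with values for mt-Nd1 of 0.60 (adjusted p = 0.213) and for mt-Nd6 of 0.68 (adjusted p = 0.189).

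The other long complex I genes did not pass. mt-Nd2 had 5124, 5350 and 5825 CPM in the mPFC formalin libraries, against 3285, 3616 and 4588 CPM in the control libraries (log2 fold change 0.50, adjusted p = 0.0771), and an adjusted p of 0.0345 without the 2 BNST libraries richest in choroid plexus RNA. mt-Nd4 and mt-Nd5 had log2 fold changes of 0.50 (adjusted p = 0.0565) and 0.43 (adjusted p = 0.086). In each of these genes, too, the groups did not overlap.

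In complexes III, IV and V no gene was called in any of the 6 comparisons within a region. mt-Co1 had 26874, 28425 and 31204 CPM in the mPFC formalin libraries, against 18506, 21791 and 23625 CPM in the control libraries, without overlap (log2 fold change 0.44, SE = 0.11, adjusted p = 0.0871). mt-Cytb had the same log2 fold change of 0.44 (SE = 0.12, adjusted p = 0.098). The genes with a near-complete nuclear copy, mt-Co2 at 0.64 (adjusted p = 0.0551) and mt-Atp6, the proton channel subunit of ATP synthase, at 0.94 (adjusted p = 0.0565), did not pass either, although mt-Co2 had an adjusted p of 0.0489 without the 2 BNST libraries richest in choroid plexus RNA. mt-Co3 had 97.1, 117 and 85.6 CPM in mPFC formalin libraries, against 57.5, 113 and 61.3 CPM in the control libraries, with overlap.

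Marker lists moved in the mPFC too. The 7 oligodendrocyte markers summed to 1704 to 2620 CPM in the formalin libraries and to 1531 to 2188 CPM in the CFA libraries. The control libraries held 2399 to 3763 CPM. Between formalin and control 0 of 7 were called. In CFA 3 of 7 were called lower than in control, and 1 of 7 was called higher in formalin than in CFA. A list of 4 nuclear-retained RNAs summed to 1084 to 1354 CPM after formalin, 1348 to 1380 CPM after CFA and 903 to 1082 CPM in control, with 1 of 4 called higher in formalin than in control and 1 of 4 called lower in formalin than in CFA. Of all tested genes, 0.269% were called between formalin and control, 0.632% between CFA and control and 0.932% between formalin and CFA. The part of these marker lists in the mitochondrial values of the mPFC was not tested.

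**Figure D4:**
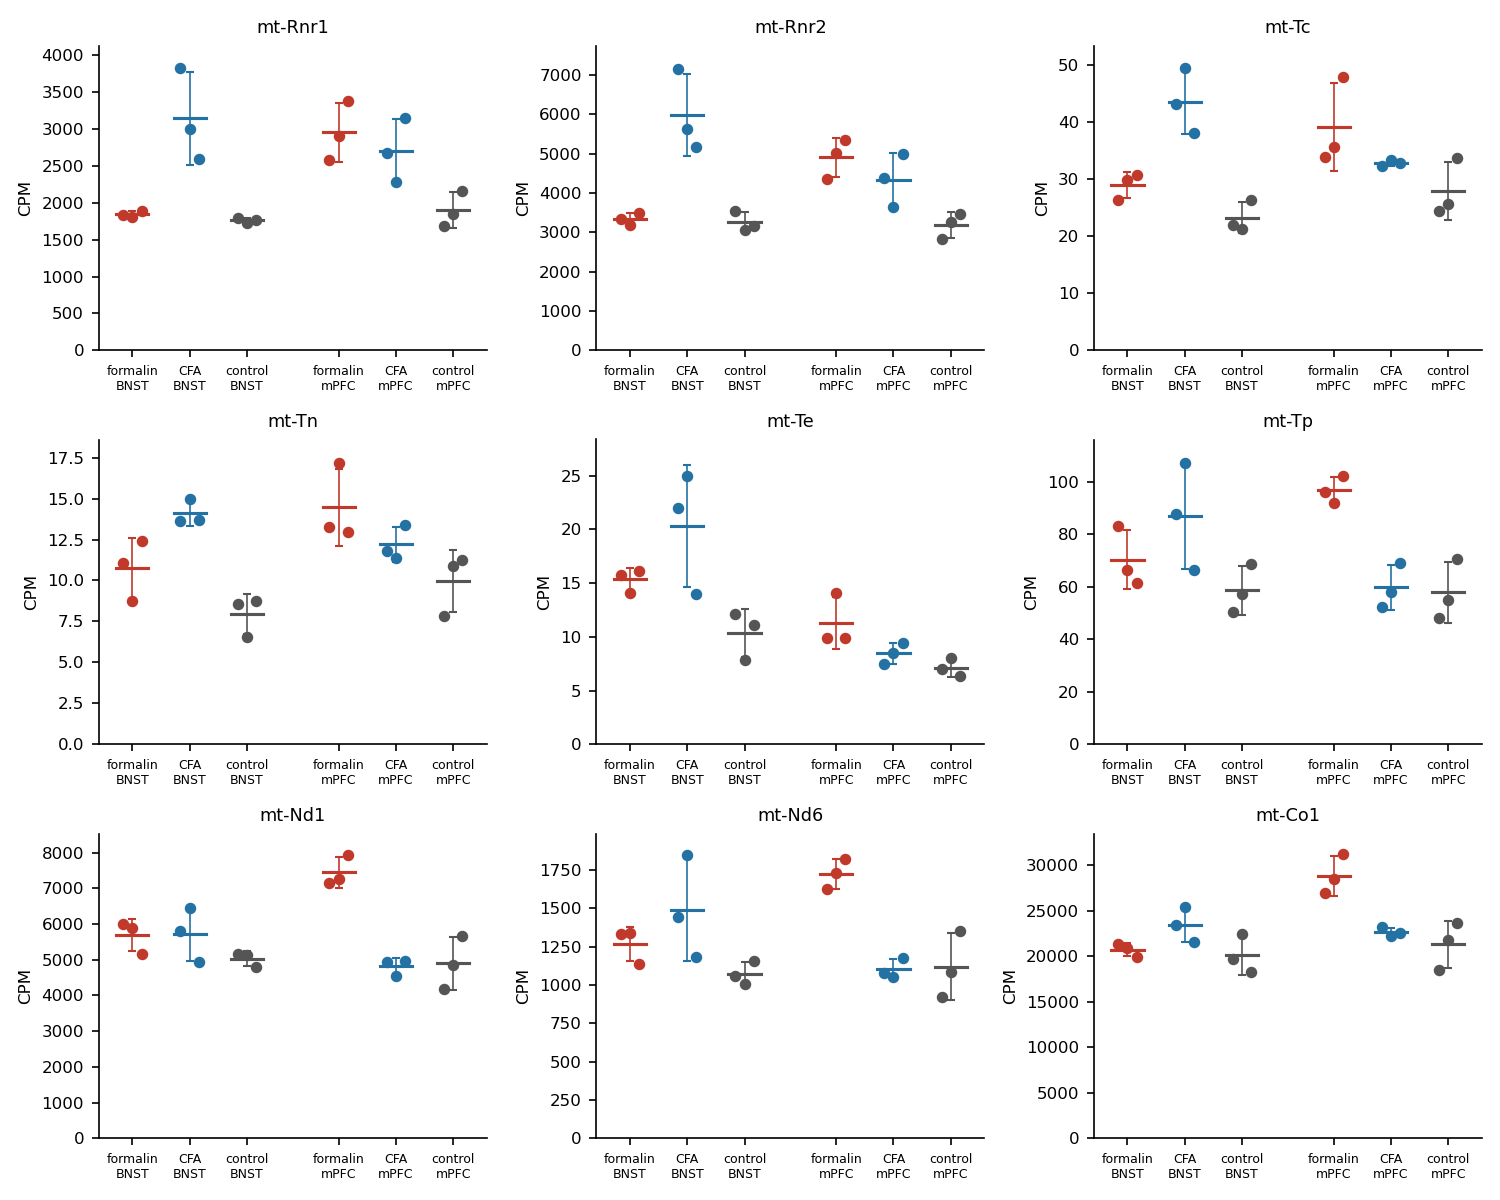
Level in CPM of 9 mitochondrial genes in each library, 1 point per library, with the BNST groups left and the mPFC groups right in each panel. Lines are means and error bars are SD (n = 3 per group). mt-Rnr1, mt-Rnr2 and mt-Tc are highest in the BNST CFA libraries of their region, and mt-Nd1, mt-Nd6 and mt-Co1 in the mPFC formalin libraries.

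In the BNST the 13 protein-coding genes had no call against control in the main fit, with 11 of them positive after CFA and 9 after formalin. After CFA their log2 fold changes ran from -0.36 to 1.18 with a median of 0.22 against a median of 0.014 over all tested genes, and after formalin from -0.58 to 0.27 with a median of 0.06 against -0.0358. mt-Co1 had 23420, 25342 and 21498 CPM in the CFA libraries, against 19649, 22419 and 18239 CPM in the control libraries, with overlap (log2 fold change 0.22, adjusted p = 0.17). mt-Nd6 came nearest to a call after CFA, with a log2 fold change of 0.47 (SE = 0.14, adjusted p = 0.0258) that is under the fold minimum. For mt-Nd6 and mt-Atp6 (0.498, SE = 0.21, adjusted p = 0.1) every CFA library lay above every control library. The same held for 15.4% of all tested genes. The highest log2 fold change after CFA, 1.18 for mt-Nd4l (SE = 0.54, adjusted p = 0.136), went with BNST CFA replicate 1. That library held 131 CPM while the other 17 libraries held 17.2 to 43.9 CPM. Without that library it was 0.07 (adjusted p = 0.922), without BNST CFA replicate 3 it was 1.63 (adjusted p = 0.0165), and with only CFA replicate 1 of each region kept it was 2.24 (adjusted p = 0.00518). In that setting, with 1 BNST CFA library, mt-Nd4l was also called lower in formalin than in CFA (-1.98, adjusted p = 0.013). After formalin 0 of the 30 mitochondrial genes were called by edgeR or by DESeq2 (edgeR called 0.3% of all tested genes), and 4 had an unadjusted p under 0.05, all tRNA genes, as against 19.6% of all tested genes.

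The 6 tested minus-strand tRNA genes were all called higher in the BNST after CFA, and 2 of the 9 tested plus-strand genes were. Of all tested genes 4.89% were called higher there. The strand is that of the annotation. All 9 plus-strand genes also had a positive log2 fold change, with a median of 0.51 beside 0.94 for the minus-strand genes. mt-Tc had 26.3, 29.8 and 30.7 CPM in BNST libraries after formalin, 43.1, 49.4 and 38.0 CPM after CFA, and 22.001, 21.3 and 26.3 CPM in control libraries. The CFA libraries lay above the other 6. Its log2 fold change was 0.91 for CFA over control (SE = 0.14, adjusted p = 0.000287) and -0.59 for formalin over CFA (SE = 0.14, adjusted p = 0.0109). The call of formalin against CFA was lost without BNST formalin replicate 1 or without BNST CFA replicate 2, with adjusted p values of up to 0.0517. Without the 2 libraries richest in choroid plexus RNA it was -0.50 (adjusted p = 0.0568), and with only CFA replicate 1 of each region kept it was -0.58 (adjusted p = 0.105).

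The genes on either side of mt-Tc, mt-Tn and mt-Ty, were called too. mt-Tn had 13.6, 14.98 and 13.7 CPM in the BNST CFA libraries, against 8.59, 6.52 and 8.73 CPM in the control libraries (log2 fold change 0.83, SE = 0.17, adjusted p = 0.00209). mt-Ty, for tyrosine, had 7.50, 4.58 and 6.39 CPM, against 3.34, 2.44 and 2.11 CPM in the control libraries (1.23, SE = 0.28, adjusted p = 0.00441). mt-Te, elsewhere on the same strand, had 22.02, 24.98 and 13.99 CPM, against 12.1, 7.88 and 11.1 CPM in the control libraries (0.97, SE = 0.20, adjusted p = 0.0025). In all 3 genes the lowest CFA library lay above the highest control library, as it did for 15.4% of all tested genes. Their calls and that of mt-Tc held without any single library. They held without the 2 libraries richest in choroid plexus RNA as well, and with only CFA replicate 1 of each region kept, so 1 CFA library in the BNST, mt-Tn missed the call (0.79, adjusted p = 0.0714). With only the libraries of the groups compared in the fit, mt-Te (adjusted p = 0.0758) and mt-Ty (adjusted p = 0.0502) missed it. Within lane L2, with 1 BNST control library, mt-Tn missed it (0.69, adjusted p = 0.0536).

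The remaining calls were less firm. mt-Tp had 87.9, 107 and 66.4 CPM in the BNST CFA libraries, against 50.3, 57.1 and 68.6 CPM in the control libraries, with overlap (log2 fold change 0.57, SE = 0.18, adjusted p = 0.0329). Its call was lost without any 1 of 4 libraries (control replicates 1 and 2, CFA replicates 1 and 2). mt-Th, mt-Tl1 and mt-Tq, for histidine, leucine and glutamine, with 7 to 132, 21 to 129 and 9 to 48 counts in a library, had log2 fold changes of 1.68 (adjusted p = 0.0414), 1.03 (adjusted p = 0.0479) and 1.12 (adjusted p = 0.0498). Their calls were lost without any 1 of 14 libraries for mt-Th, of 15 for mt-Tl1 and of 16 for mt-Tq. Without the 2 libraries richest in choroid plexus RNA the log2 fold changes were 0.41 for mt-Tp (adjusted p = 0.159), 1.16 for mt-Th (adjusted p = 0.19), 1.10 for mt-Tl1 (adjusted p = 0.0632) and 0.67 for mt-Tq (adjusted p = 0.292). With only CFA replicate 1 of each region kept, adjusted p was 0.115 for mt-Tp, 0.101 for mt-Th, 0.299 for mt-Tl1 and 0.153 for mt-Tq. mt-Th had 4.36, 6.50 and 1.27 CPM in the CFA libraries, against 1.36, 0.454 and 1.98 CPM in the control libraries, so the groups overlapped.

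Summed over the 6 tested minus-strand tRNA genes, BNST libraries held 140, 123 and 127 CPM after formalin, 176, 203 and 139 CPM after CFA, and 97.1, 95.8 and 118 CPM in control mice. The mPFC libraries held 157, 165 and 177 CPM after formalin, 108, 116 and 130 CPM after CFA, and 89.5, 104 and 124 CPM in control mice. The CFA libraries thus stood highest as a group in the BNST, although 1 of them lay below the highest formalin library, and the formalin libraries stood highest in the mPFC. No tRNA gene was called in any of the 3 mPFC comparisons, where the smallest adjusted p was 0.0729 for formalin over control, 0.304 for CFA over control and 0.0621 for formalin over CFA. That last value, of mt-Tp, was 0.0455 without the 2 BNST libraries richest in choroid plexus RNA.

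Between the regions, the mitochondrial genes of the control mice had nearly equal levels. The log2 fold changes of BNST over mPFC ran from -0.08 to 0.40 over the protein-coding genes with a median of 0.06, and 0 of the 30 tested genes had groups that did not overlap, while of all tested genes 25.3% lay wholly above and 23.2% wholly below. mt-Te was the only mitochondrial gene called, with 12.1, 7.88 and 11.1 CPM in the BNST control libraries, against 7.04, 8.05 and 6.32 CPM in the mPFC control libraries (log2 fold change 0.53, SE = 0.21, adjusted p = 0.0489), whereas 26.6% of all tested genes were called. Its call was lost without any 1 of 14 libraries. The fit held no term for the mouse, so it ignored that the study describes taking both regions from the same brains. By the animal numbers of the headers, BNST control replicate 2 matches mPFC control replicate 1, and replicate 3 matches replicate 3. BNST control replicate 1 and mPFC control replicate 2 have no match in the other region. With the animal number of the headers as a block the call was lost as well.

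Whether a change differed between the regions was tested as the change in the BNST minus the change in the mPFC. These tests, too, held no term for the mouse. With the animal number of the headers as a block, 0 of the mitochondrial genes passed for either change. For formalin 0 of the 30 mitochondrial genes passed by edgeR (0.158% of all tested genes did), 9 had an unadjusted p under 0.05 (14.6% of all tested genes) and DESeq2 called 2. The difference was below 0 in 29 of the 30, with the smallest adjusted p at mt-Co2 (-0.79, SE = 0.21, adjusted p = 0.104). For CFA 0 passed by edgeR (4.17% of all tested genes did), 5 had an unadjusted p under 0.05 (19.4% of all tested genes) and DESeq2 called 1. The difference was above 0 in 29 of the 30, with the smallest adjusted p at mt-Tc (0.67, SE = 0.20, adjusted p = 0.065). For mt-Rnr2 the differences were -0.59 for formalin (SE = 0.19, adjusted p = 0.173) and 0.43 for CFA (SE = 0.19, adjusted p = 0.219). The calls of the rRNA genes in 1 region are thus not shown to differ from the other region.

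mt-Nd3, a small complex I gene, had counts that moved against those of a nuclear copy. An annotated nuclear transcript, Gm28438 at 24612775 to 24613119 on chromosome 1, minus strand, matches 345 of its 348 bases with 1 difference. In the notation with the mitochondrial base, then the position from the first base of mt-Nd3, then the base of the nuclear transcript, it is T3C, which lies at position 9461 of the mitochondrial genome. The first 60 bases of both genes are shown with that base in capitals.
mt-Nd3, chrM:9459-9518, plus strand: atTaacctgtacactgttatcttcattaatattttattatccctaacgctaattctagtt
Gm28438, chr1:24613060-24613119, minus strand: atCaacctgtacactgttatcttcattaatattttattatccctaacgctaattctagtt

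In the BNST, mt-Nd3 had 551, 668 and 748 counts in the formalin libraries, 1059, 103 and 40 counts in the CFA libraries, and 450, 326 and 596 counts in the control libraries. Its nuclear copy Gm28438 had 34, 28 and 34 counts in the formalin libraries, 34, 1339 and 675 counts in the CFA libraries, and 34, 18 and 24 counts in the control libraries. The copy was thus high where mt-Nd3 was low, in CFA replicates 2 and 3. The mPFC libraries had the same arrangement. mt-Nd3 had 822, 673 and 619 counts in the formalin libraries, 467, 51 and 33 counts in the CFA libraries, and 334, 442 and 488 counts in the control libraries. Gm28438 had 48, 44 and 27 counts in the formalin libraries, 26, 506 and 544 counts in the CFA libraries, and 17, 24 and 25 counts in the control libraries.

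**Figure D5:**
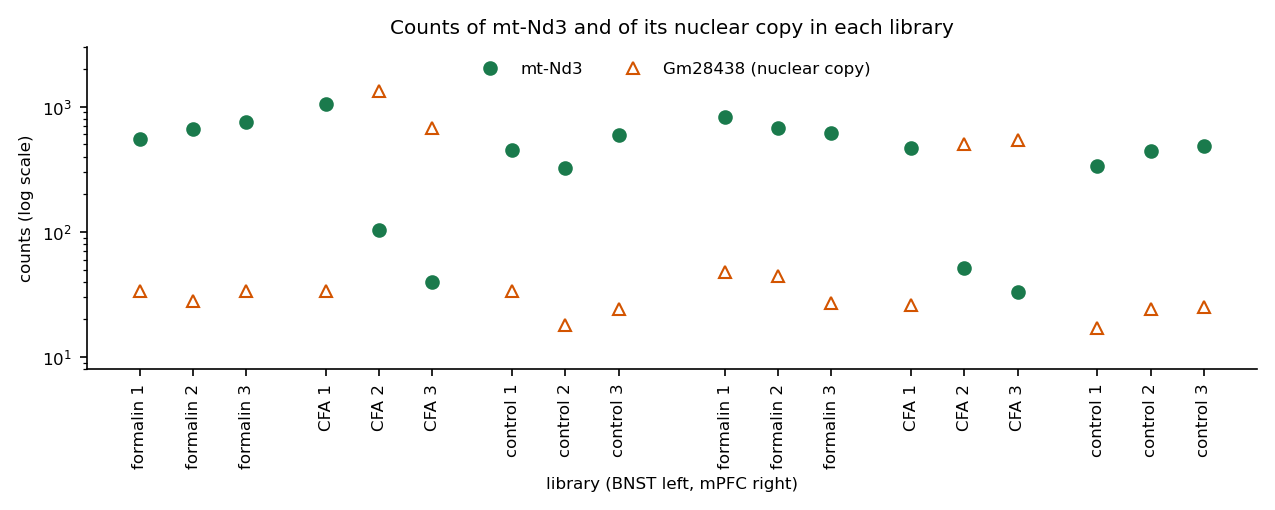
Counts of mt-Nd3 (filled circles) and of its nuclear copy Gm28438 (open triangles) in each of the 18 libraries on a log axis. In CFA replicates 2 and 3 of both regions the copy has 506 to 1339 counts and mt-Nd3 33 to 103, and in the other 14 libraries the copy has 17 to 48 and mt-Nd3 326 to 1059.

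In those 4 libraries 5.59% to 9.16% of the counts of the pair lay on mt-Nd3, whereas in the other 14 libraries 93.0% to 96.9% did. The pair together took 34.7 to 71.4 CPM of the raw library total in the 4 libraries and 17.6 to 61.9 CPM in the other 14, so the ranges of the sum overlapped while the split did not. The headers of the study's supplementary tables give the CFA libraries of both regions the animal numbers 1, 2 and 3, and the 4 libraries are those of animals 2 and 3. The neighbours of mt-Nd3 were low in the same libraries. mt-Tg, the glycine tRNA gene that ends on the base before mt-Nd3, had 0 to 2 counts in the 4 libraries and 5 to 45 in the other 14, and mt-Tr, the arginine tRNA gene that follows it, had 0 to 6 counts and 5 to 43. The sequence of mt-Tg is shown because its last base is the one next to mt-Nd3.
mt-Tg, chrM:9391-9458, plus strand: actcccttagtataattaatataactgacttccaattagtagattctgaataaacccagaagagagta

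The tested values of mt-Nd3 went with this split. The log2 fold change of CFA over control in the BNST was -0.36 (SE = 0.99, adjusted p = 0.831), and with the counts of 6 nuclear copies added to their mitochondrial genes, Gm28438 among them, it was 0.91 (adjusted p = 0.0226). Gm28438 itself had a log2 fold change of 4.44 for CFA over control in the BNST (SE = 1.16, adjusted p = 0.0164) and of -4.33 for formalin over CFA (SE = 1.13, adjusted p = 0.0242). In the mPFC, formalin over CFA had large positive values for mt-Nd3 (1.91), mt-Tr (1.88) and mt-Tg (3.15), and none passed. These values go with the mPFC libraries among the 4, CFA replicates 2 and 3.

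The other nuclear copies differed in how the counts were split. The share of the counts of the pair on the mitochondrial gene was 66.4% to 77.4% for mt-Co2 and Gm28661, 48.6% to 67.9% for mt-Atp6 and Gm10925, 66.0% to 81.0% for mt-Co3 and Gm28437, and 44.3% to 93.9% for mt-Nd4l and Gm10222. The share on mt-Nd4l was lowest in the same 4 CFA libraries, with 44.3% to 56.7% in them and 58.3% to 93.9% in the other 14. The 2 ranges nearly met, without the wide gap of mt-Nd3. These 4 transcripts match their genes with 0 differences over 99.6%, 99.6%, 99.9% and 99.0% of the gene. Gm28439 matches 63.6% of mt-Nd4, also with 0 differences, and 98.8% to 99.4% of the counts of that pair lay on mt-Nd4. Gm28439 was called higher in the mPFC after formalin, with log2 fold changes of 0.89 over control (SE = 0.19, adjusted p = 0.0413) and 0.80 over CFA (SE = 0.19, adjusted p = 0.0429). With the counts of these 6 copies added, mt-Co2 (0.62, adjusted p = 0.0452) and mt-Atp6 (0.83, adjusted p = 0.0496) were called as well in the mPFC between formalin and control, which made 5 genes in place of 3. A second copy of mt-Co2 sequence, Gm13341, and the copy of part of mt-Co1, Gm29216, were not added.

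Of 41 listed nuclear genes that make and process mitochondrial RNA 38 were tested, including Polrmt, the mitochondrial RNA polymerase, and Tfam, its packaging and initiation factor. In the BNST after CFA, where 11.9% of all tested genes were called, 1 of the 38 was, Mgme1, a nuclease of mitochondrial DNA maintenance, which was higher (log2 fold change 0.60, SE = 0.17, adjusted p = 0.0189). Between formalin and CFA in the BNST, with 6.87% of all tested genes called, 1 of the 38 was, and Polg2, the accessory subunit of the mitochondrial DNA polymerase, was higher (0.67, SE = 0.22, adjusted p = 0.0483). No gene of the list was called in the mPFC, where the comparisons called 0.269% to 0.932% of all tested genes. The same held between formalin and control in the BNST, with 0.3% of all tested genes called. At such shares 0 calls do not set the list apart from other genes. Of 5 tested regulators of mitochondrial biogenesis, Ppargc1b, a coactivator of nuclear genes for mitochondria, was lower in the BNST after CFA (-0.52, SE = 0.12, adjusted p = 0.00697). Of the same 5, Ppargc1a had a change after CFA that differed between the regions (0.55, SE = 0.12, adjusted p = 0.00957). The test of that difference called 4.17% of all tested genes and held no term for the mouse.

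The nuclear-encoded partners of the mitochondrial products were compared in the same way. In the BNST after CFA, with 11.9% of all tested genes called and 4.89% called higher, of 81 tested nuclear subunits of the respiratory chain and ATP synthase 18 were called higher and 0 lower, with a median log2 fold change of 0.39 against 0.014 over all tested genes. The largest changes were those of Cox7b (0.75, adjusted p = 0.00029), Ndufa1 (0.67) and Uqcrb (0.64), subunits of complexes IV, I and III. Of 75 tested proteins of the mitochondrial ribosome 6 were called higher and 0 lower (median 0.21), among them Mrps6 (0.68), Mrpl22 (0.61) and Mrpl13 (0.58). After formalin 0 of either list was called in the BNST, where 0.3% of all tested genes were called, with medians of 0.06 and -0.02. In the mPFC 0 of either list was called in the 3 comparisons, where 0.269%, 0.632% and 0.932% of all tested genes were called. At such shares 0 calls do not set the lists apart from other genes. The medians of the respiratory chain list in the mPFC were 0.17 for formalin over control, 0.19 for CFA over control and -0.02 for formalin over CFA. So in the mPFC the mitochondrial protein-coding genes had a median of 0.53 between formalin and CFA, beside one of -0.02 for their nuclear partners, each with the comparison's own values and without a test of the difference.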

How the data were processed

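The deposited table holds whole read counts per gene for 18 libraries of polyA RNA, made by the authors from 150-base paired reads with Trimmomatic 0.39, HISAT2 2.2.1 on mm10 (GRCm38), SAMtools and featureCounts 2.0.1, as the submitters' processing notes list them. Settings for strand and for reads with several matches are not given in the sources used here. All 18 value columns were mapped to samples by name, and 0 were left out.

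Counts of genes passing filterByExpr (minimum count 10, total 15) were TMM-normalized and fitted in edgeR 4.0.16 (robust quasi-likelihood, 6 group means, 12 residual degrees of freedom, R 4.3.3). Tables were joined in Python 3.11.15 with pandas 2.3.3, and figures drawn with matplotlib 3.10.9. A self-test of the fit ran on simulated counts. The 9 comparisons were those within each region, between regions in control mice, and the region differences of both changes. Depth per library, 14781315 to 23408503 counts, limits the rare tRNA genes most. Pairs of replicates differed beyond counting noise (chi-square per degree of freedom 3.53 to 73.4).

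Alternatives were RLE scaling, scaling by nuclear genes, DESeq2 1.42.0, limma-voom (limma 3.58.1), no or a stricter filter (1 CPM in a whole group, total 200), fewer libraries in the fit, lane, replicate block, no fold minimum and leaving out each library. A further 3 were added after seeing the data: counts of 6 copies added to their genes, and leaving out the libraries that stood apart (2 sets). Lanes and animal numbers come from headers of supplementary tables, joined by equal counts. Nuclear copies were sought, after the data were seen, as exact matches of 150-base windows of the mitochondrial genes in other GENCODE M21 transcripts. The 6 copies were then compared with their genes base by base. Nuclear sequence outside annotated transcripts, and copies with more differences, were not searched. All 37 mt- genes are named, tRNA genes with values where called or most abundant on their strand. Of other lists the counts and at most 3 called members are given. The members and lists were chosen with earlier results of these data known.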

Additional observations from a re-analysis of the deposited data

How the results depend on the processing

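The counts of called mitochondrial genes depended on the fit. For CFA over control in the BNST, 10 in the main model, the count was 6 with no filter on low counts, 4 with only the libraries of the groups compared and 5 with only lane L2, which holds 1 of the 3 BNST control libraries. It was 6 without BNST CFA replicate 2 and BNST formalin replicate 2, and 6 without CFA replicates 2 and 3 of both regions. For formalin over control in the mPFC, 3 in the main model, it was 12 with only the groups compared, 11 with only the 9 libraries of the region, 6 with limma-voom, 8 with DESeq2, 5 with the counts of 6 copies added and 6 without BNST CFA replicate 2 and BNST formalin replicate 2. For CFA over control in the mPFC, 0 in the main model, it was 1 with only the groups compared and 1 with DESeq2. For formalin over CFA in the mPFC, 2 in the main model, it was 6 with only the groups compared, 4 with the region's libraries, 5 with DESeq2 and 0 without CFA replicates 2 and 3 of both regions. The 1 call between the regions in control mice became 0 under RLE, under both fits with fewer groups, in lane L2, with limma-voom and with the animal number as a replicate block. DESeq2 gave 2 calls for the region difference of the formalin change and 1 for that of the CFA change, where no filter also gave 1. The causes were not tested.

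Leaving out each library in turn gave 0 to 0 calls for formalin over control, 6 to 11 for CFA over control and 2 to 6 for formalin over CFA in the BNST. In the mPFC it gave 0 to 7, 0 to 0 and 0 to 3 in the same order of comparisons, and 0 to 1 between the regions, 0 to 1 for the region difference of the formalin change and 0 to 2 for that of the CFA change. The mean share of counts on mitochondrial genes then ran from 5.82% to 6.09% (formalin), 6.27% to 6.85% (CFA) and 5.39% to 5.56% (control) in the BNST, and from 6.67% to 7.07%, 5.22% to 5.49% and 4.70% to 5.48% in the mPFC. With rRNA genes left out of the mitochondrial counts, and rRNA genes, copies and untested genes left out of the total, the mean share was 5.41% in place of 5.93% after formalin, 5.63% in place of 6.51% after CFA and 5.004% in place of 5.50% in control in the BNST, and 6.21% in place of 6.89% after formalin, 4.72% in place of 5.35% after CFA and 4.65% in place of 5.11% in control in the mPFC.

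Same-numbered libraries of a region come from different treatments, so from different mice. Their residual correlations were -0.193 to 0.308, above 0.1 in 4 of 18 pairs. Libraries of the same animal number in the other region had -0.032 to 0.166, above 0.1 in 2 of 8. Low correlations over all tested genes do not show that the libraries of both regions are unpaired. The mt-Nd3 split followed the animal numbers of the CFA mice in both regions. With a replicate block the counts were 0, 9 and 3 for BNST formalin over control, CFA over control and formalin over CFA, and 1, 0 and 3 for the mPFC comparisons, and 0 for the other 3 comparisons. Over single genes 1 value turned its direction across a call, that of mt-Nd3 for CFA over control in the BNST, which was 0.91 with the copies' counts added.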
